A study of Gallus gallus with 3 samples.

Results

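The subunit genes of potassium, sodium and calcium channels were followed through neural crest cells (NCC) of the chick at 3 embryonic stages. Every named gene of the array whose symbol starts with KCN (potassium), SCN (sodium) or CACN (calcium) was taken, which gave 103 genes, and SCNM1, a splicing factor, and KCNRG, a regulator of channel assembly, were left out because they are not channel subunits. The remaining 101 genes, out of 13009 named genes, comprised 69 potassium, 14 sodium and 18 calcium channel genes. Only 75 of them were counted with the families of voltage-gated pores and their partners. That count includes the potassium channels opened by internal calcium or sodium, of which KCNN1 and KCNN2 are not gated by voltage. The other 26 code for inward rectifiers (KCNJ), leak channels (KCNK) and epithelial sodium channels (SCNN), which voltage does not gate in the usual sense, so the set is called channel genes here.

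Voltage-gated channels open when the membrane potential changes, and they let potassium, sodium or calcium ions flow down their gradients. In neurons, sodium channels carry the upstroke of the action potential, potassium channels end it and set the resting potential, and calcium channels link electrical activity to transmitter release, gene expression and growth cone behaviour. Each pore subunit works with auxiliary subunits that change how many channels reach the surface and how they gate. NCC leave the neural tube as migratory cells, and those that settle in the dorsal root ganglia become neurons and glia that acquire such currents as they mature.

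The study asked how gene expression in trunk NCC (tNCC) differs between migrating cells at stage HH16 and cells starting to condense into ganglia at HH19, with cranial NCC of HH9 as a further population. Wild-type White Leghorn embryos were pooled, trunk explants or heads were freed of ectoderm, notochord or neural tube as the methods describe, and cells carrying the HNK1 surface antigen were collected with magnetic beads. The source field of the HH9 sample says trunk, whereas the methods say heads. The Affymetrix chicken genome array was used, and 1 column of values per stage was analysed here, 3 in all, each called an array below. No value therefore has a replicate error, and no p-value is given.

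The stage of the trunk arrays is not settled by their labels. For the array titled HH16 the age is entered as HH19, and for the array titled HH19 it is entered as HH16. The arrays are named here by their titles, as HH16-titled and HH19-titled. Most neuronal markers were brighter on the HH16-titled array, so for these genes the direction by title runs opposite to the one the study describes. The study also describes TWIST, GATA3 and ISLET1 as higher at HH19. TWIST1, at 15.2 on the HH16-titled and 516.3 on the HH19-titled array, and GATA3, at 72.0 and 134.8, ran with the titles. ISL1, at 5215 and 530.4, did not. Every direction given here between the trunk arrays turns round if the ages entered are right.

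The 3 arrays were scaled alike, with a trimmed mean signal of 500.1 on each, and NCC markers were present on each. SOX10, a transcription factor that defines NCC, gave 12315 on the HH9, 15746 on the HH16-titled and 17338 on the HH19-titled array. Of 13 measured NCC markers, 13, 11 and 13 were at or above the floor on the HH9, HH16-titled and HH19-titled arrays. The floor was a signal of 99.8, the 40th percentile over all 3 arrays, and signals under it were not given an order. Over the HH9 array, 2 of 13 NCC markers were at least 2-fold higher and 4 lower on the HH16-titled array (6.8% and 3.2% of all named genes). On the HH19-titled array 1 was higher and 2 lower (5.34% and 2.58%). Between the trunk arrays, 0 were higher and 2 lower on the HH16-titled array (1.93% and 1.54%). SNAI2 gave 3776, 997.1 and 1206 on the HH9, HH16-titled and HH19-titled arrays, and TWIST1 1941, 15.2 and 516.3. Markers of other cells were also seen: the summed signal of 21 neuronal markers was 17000 on the HH9 array, 57325 on the HH16-titled array and 27094 on the HH19-titled array. For 11 markers of neural tube progenitors the sums were 11166, 13769 and 19384 in the same order of arrays, and for 21 muscle and heart markers they were 11715, 13479 and 15775. The neural tube progenitor sums include FABP7 at 9032, 8292 and 8267, and the muscle and heart sums include MYL4 at 5254, 8946 and 9623. Of 16 such markers with a ratio over the HH9 array, 2 were at least 2-fold higher and 5 lower on each trunk array. No marker of these lists had a signal of 0. In such a bulk sample, fewer cells of a type and less RNA per cell cannot be told apart.

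Channel genes reached the floor less often than other named genes on all 3 arrays. The array held 206 probe sets for the 101 genes, and the brightest one by mean log2 signal stood for its gene on every array. Of the 101 channel genes, 50 were at or above the floor on the HH9 array, 55 on the HH16-titled array and 53 on the HH19-titled array. On all 3 arrays together, 39 channel genes (38.6%) reached the floor, against 71.7% of all named genes, and 36 (35.6%) reached it on none, against 16% of all named genes. A further 9 genes (8.91%) were at or above it on both trunk arrays but not on the HH9 array, against 3.28% of all named genes. This was not particular to the trunk. On the HH9 array alone the shares were 4.95% against 1.85%. On the HH9 and HH16-titled arrays only they were 3.96% against 1.5%, and on the HH9 and HH19-titled arrays only 1.98% against 1.79%. Probe sets differ in how well they bind their target, so these shares describe what the array could measure and not an order of RNA amounts between genes.

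**Figure D1:**
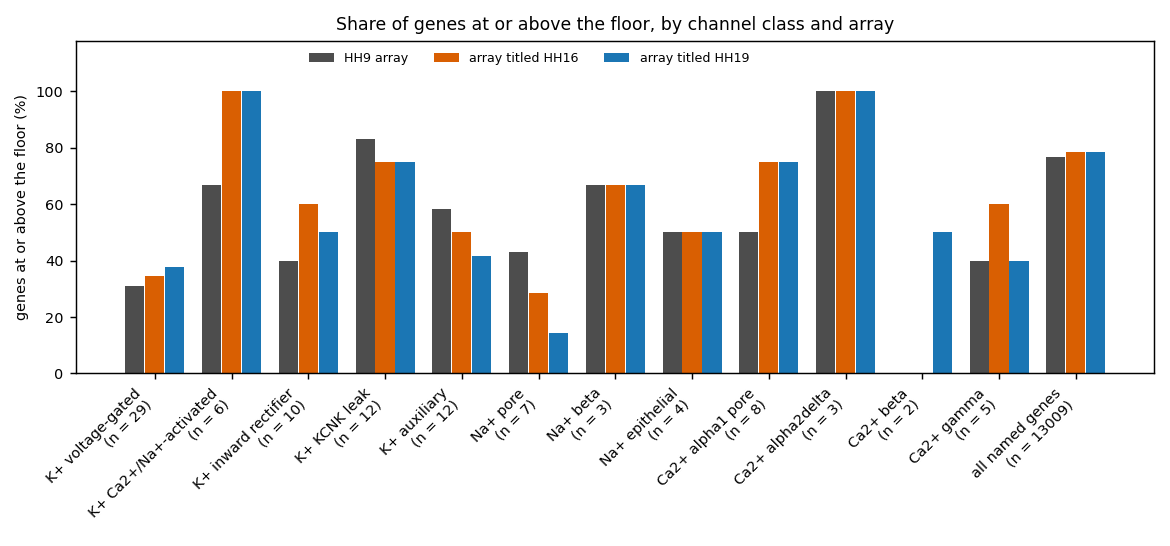
Share of the genes of each channel class with a signal at or above the floor of 99.8 (vertical axis, percent of genes), with bars for the HH9, HH16-titled and HH19-titled arrays; n is the number of genes in the class, and all 13009 named genes are on the right. All 6 genes of the class of calcium- or sodium-activated potassium channels and their relative KCNU1 reached the floor on both trunk arrays, while at most 11 of 29 voltage-gated potassium pore genes did on any array.

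Voltage-gated potassium pores (KCNA to KCNV), which repolarize neurons and muscle, were the largest class and among the least often measured. Of 29 genes, 14 were under the floor on all 3 arrays, among them KCNA1, KCNA2 and KCNA3 of the Shaker family. The 15 others stayed between 100.5 and 231.3 on their brightest array. KCND3, a pore of the fast-inactivating A-type current, had the highest signal on any single array, with 166.5 on the HH9 array, 231.3 on the HH16-titled array and 138.3 on the HH19-titled array. KCNG2, a silent subunit that modifies other pores, gave 158.2, 186.4 and 213.5 in the same order. Neither gene varied by as much as 2-fold over the arrays.

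The potassium channels opened by internal calcium or sodium, together with their relative KCNU1, had all 6 genes at or above the floor on both trunk arrays and 4 on the HH9 array. KCNN1, a small-conductance channel that follows internal calcium, measured 358.4 on the HH9 array, 222.9 on the HH16-titled array and 258.0 on the HH19-titled array. Its relative KCNN2 gave 9.6, 240.8 and 178.0 in that order, so it was far under the floor on the HH9 array only. KCNU1, a channel of mammalian sperm that internal alkalinization opens, gave 238.9, 216.1 and 142.8. KCNMA1, the pore of the large-conductance channel that needs both calcium and voltage, is described with the trunk comparison.

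Inward rectifiers and leak channels hold the resting potential. Of 10 KCNJ genes, 6 reached the floor on at least 1 array, and of 12 KCNK genes, 11 did, with KCNK4 the exception. The brightest KCNK probe sets were those of KCNK7 and KCNK5. KCNK7, whose mammalian protein gives no current on its own, had 895.9 on the HH9 array, 633.1 on the HH16-titled array and 1035 on the HH19-titled array. KCNK5, an acid-sensitive background channel, had 566.0, 674.7 and 840.6. KCNK2, a leak channel opened by stretch and lipids, had 388.7, 197.9 and 324.1, the HH16-titled array being the lowest. KCNK12, a leak channel of the halothane-inhibited type, had 153.5, 304.2 and 276.8 and was higher on both trunk arrays. KCNJ3, a subunit of the channel opened by G proteins, stayed within 216.7, 189.8 and 210.1.

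Auxiliary potassium channel subunits reached the floor in 7 of 12 cases. Among them were the cytoplasmic beta subunits, which bind voltage-gated pores from inside: KCNAB1 had 403.8 on the HH9 array, 648.5 on the HH16-titled array and 578.0 on the HH19-titled array, and KCNAB2 had 497.4, 671.2 and 477.5. Both were at or above the floor on all 3 arrays. KCNE4, a small membrane subunit that inhibits KCNQ1 in mammals, gave 251.2, 214.1 and 162.9, with its other probe sets under the floor on all 3 arrays.

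Sodium channel genes reached the floor on at least 1 array in 7 of 14 cases. Of 7 pore genes, SCN1A, SCN3A, SCN9A and SCN11A were under the floor on all 3 arrays, and the probe sets used for the other 3 did not exceed 162.2. SCN8A, a main pore of mature axons, had 142.7 on the HH9 array, 154.2 on the HH16-titled array and 108.8 on the HH19-titled array, and another of its probe sets had 194.6, 161.6 and 47.5. SCN4A, the pore of skeletal muscle, had 162.2, 142.9 and 33.2, with its other probe sets under the floor on all 3 arrays. Of the beta subunits, adhesion-type membrane proteins that tune the pore, SCN2B had 425.6, 328.8 and 475.4, and SCN3B had 299.7, 515.5 and 647.3. The other probe sets of SCN2B were under the floor on all 3 arrays. SCN4B was under the floor on all 3 arrays. Of the epithelial channel genes, SCNN1A had 454.0, 339.1 and 372.7 and SCNN1G had 216.3, 214.1 and 176.0, while SCNN1B and SCNN1D were under the floor throughout.

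Among the ion groups, calcium channels had the highest share of genes at or above the floor on at least 1 array, 13 of 18 (72.2%). It was 45 of 69 (65.2%) for potassium and 7 of 14 (50%) for sodium channel genes, and 84% for all named genes. On the HH9 array itself the shares were alike, at 50% for calcium, 49.3% for potassium and 50% for sodium channel genes. Among the 8 alpha1 pores, CACNA1I and CACNA1S, the pore of skeletal muscle, were under the floor on every array by the probe set used, although another probe set of CACNA1I reached 116.9 on the HH16-titled array. CACNA1D, an L-type pore that opens at modest depolarization, had 75.3 on the HH9 array, 345.6 on the HH16-titled array and 406.9 on the HH19-titled array. CACNA2D1, an extracellular alpha2delta subunit that helps pores reach the surface, had 159.5, 864.2 and 929.1. CACNA2D3, of the same family, had 103.7, 195.2 and 109.6. Both CACNA1D and CACNA2D1 were thus higher on each trunk array than on the HH9 array.

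**Figure D2:**
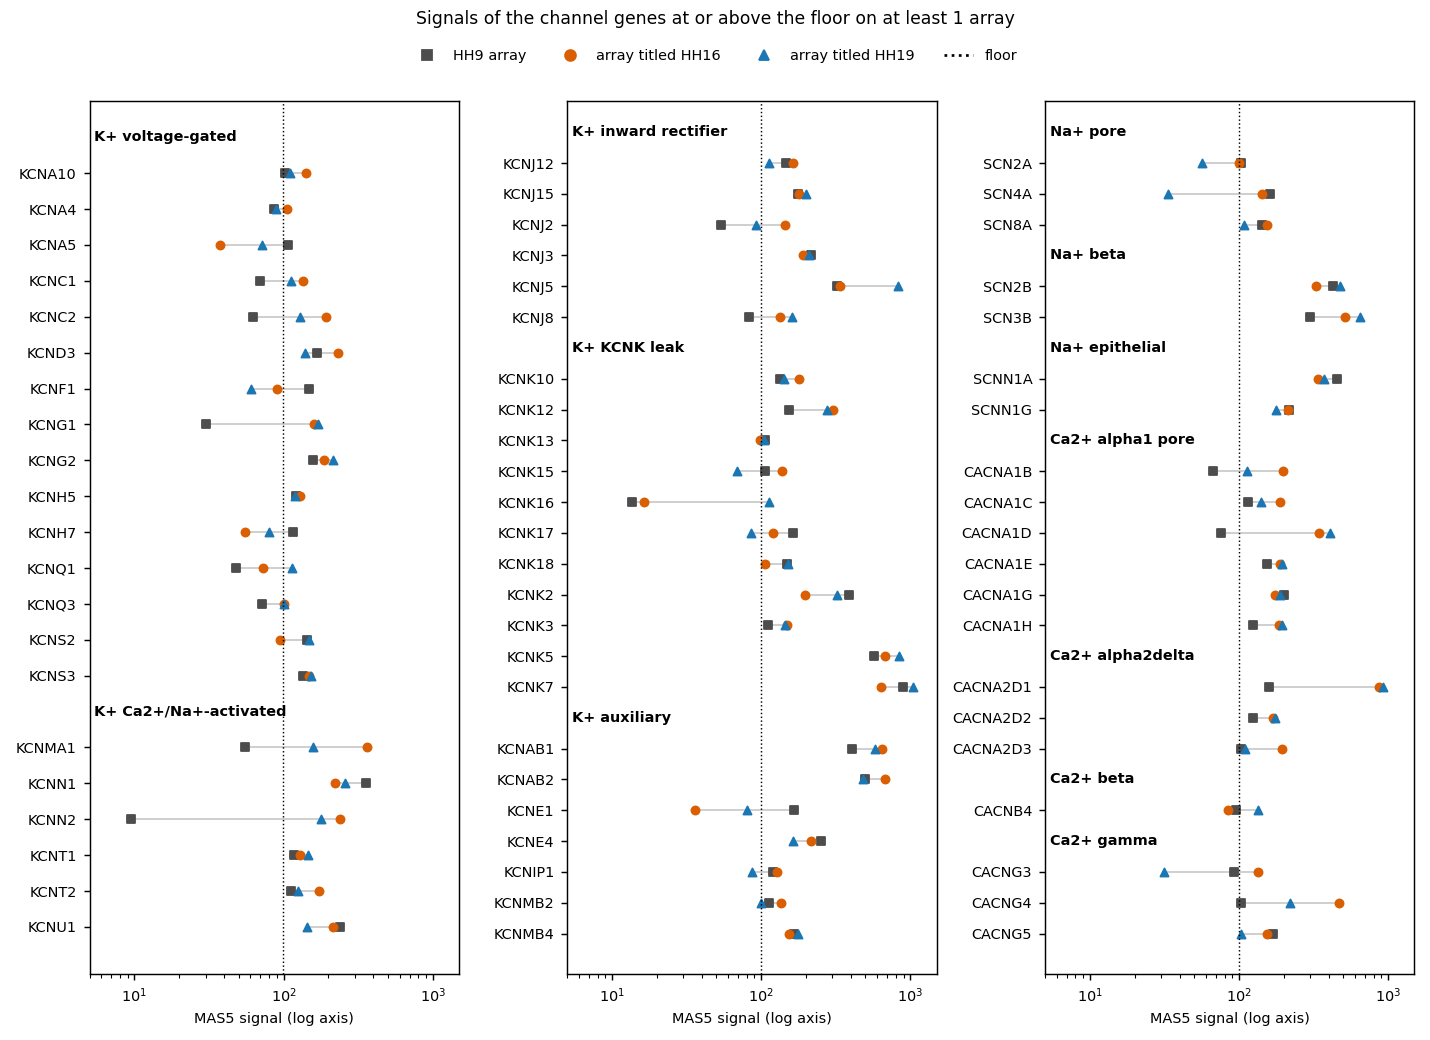
MAS5 signal (log axis) of the 65 channel genes at or above the floor (dotted line, 99.8) on at least 1 array, by class, with squares for the HH9 array, circles for the HH16-titled array and triangles for the HH19-titled array; each point is 1 array. Most genes lie within 2-fold of the floor, and for CACNA2D1, CACNA1D, KCNG1 and KCNN2 the HH9 square lies far to the left of both trunk symbols, under the floor for all but CACNA2D1.

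By the probe set used, a few genes reached the floor on 1 array only, and all of them stayed near it. On the HH16-titled array alone these were KCNA4 at 105.1, KCNJ2 at 144.8 and CACNG3 at 133.3. On the HH19-titled array alone they were KCNQ1 at 113.3, KCNK16 at 113.1 and CACNB4 at 134.4. On the HH9 array alone they were KCNE1 at 165.3, KCNF1 at 148.9, KCNH7 at 115.4, KCNA5 at 106.5 and SCN2A at 103.8. Other probe sets did not bear out the single array in each case: KCNH7 had one with 114.1 and SCN2A one with 126.3 on the HH16-titled array, and KCNQ1 one with 104.97 on the HH9 array. The probe set of KCNE1, a small partner of KCNQ1 in the slow delayed rectifier of the heart, was of the A orientation, and its other probe set was under the floor on all arrays.

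Between the trunk arrays, 3 channel genes differed by 2-fold or more. A ratio could be formed for 60 of the 101 genes, those with at least 1 of both signals at or above the floor, and a signal under the floor was replaced by it, which makes 12 of these ratios lower bounds of the difference. KCNMA1 and CACNG4 were higher on the HH16-titled array, 2 of 60 genes (3.33%), where 1.93% of all named genes with a ratio were higher. KCNJ5 was lower, 1 of 60 genes (1.67%), where 1.54% of all named genes were lower. The median log2 ratio was 0.06 over the channel genes and -0.02 over all named genes. Only 22 channel genes (21.8%) had a signal of at least 2 times the floor on the brighter array and so could be called, against 67.2% of all named genes. Of these 22, the shares called were 9.09% higher and 4.55% lower, against 2.36% and 1.88% of the named genes that could be called. These shares rest on 2 genes and 1 gene. A gene enters them through its brighter array alone, which favours genes that differ where many signals lie near the floor. The shares therefore do not measure a difference between the sets.

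KCNMA1 had a signal of 365.2 on the HH16-titled array, against 158.3 on the HH19-titled array, and 55.1 on the HH9 array. The log2 ratio between the trunk arrays was 1.21, or 2.31-fold. The signal on the HH9 array was under the floor, so by this probe set KCNMA1 was bright on 1 trunk array, intermediate on the other and not measurable in the cranial cells. The array held 4 probe sets for the gene. Another gave 315.5 against 62.8, and a further one 299.3 against 35.8, with 11.8 and 15.5 on the HH9 array. The last, of the A orientation, was under the floor on all 3 arrays. The 3 probe sets that detected KCNMA1 thus had the HH16-titled array highest.

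CACNG4 belongs to the gamma family of calcium channel subunits, whose members are also known as partners of AMPA-type glutamate receptors. Its signal was 468.2 on the HH16-titled array, against 218.5 on the HH19-titled array (log2 ratio 1.10, 2.14-fold), and 102.9 on the HH9 array. It has 1 probe set. With the floor raised to the 60th percentile its log2 ratio between the trunk arrays became 0.99 and that of KCNMA1 0.64, so that neither was called. The HH19-titled signal of both genes lay under that floor. Both values are thus lower bounds and do not show a smaller difference.

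KCNJ5 codes for an inward rectifier opened by G proteins, the partner of KCNJ3 in the channel through which the vagus slows the heart. Its signal was 335.1 on the HH16-titled array, against 820.0 on the HH19-titled array (log2 ratio -1.29, 2.45-fold lower), and 319.8 on the HH9 array. Of its 4 probe sets, another gave 321.8 against 672.8 and a further one 151.5 against 284.5, while the last was under the floor on all arrays. The HH19-titled array therefore stood apart from both others on the 3 probe sets that detected KCNJ5. KCNJ3 did not move with it and gave 189.8 against 210.1.

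The genes next to the threshold were calcium channel genes and a potassium pore. Just inside it was CACNG4. Just outside were CACNA2D3 at a log2 ratio of 0.83, CACNA1B, the N-type pore of synapses, at 0.80 with 197.0 against 112.9, and KCND3 at 0.74. A further probe set of CACNA2D3 had 115.4 against 102.2 (0.18). On the other side, KCNK2 and KCNK7 came nearest to KCNJ5, both at -0.71. Another probe set of KCNK7 passed 2-fold, with 108.1 against 233.1 (-1.11), and had 268.6 on the HH9 array. CACNA2D1 and CACNA1D, bright on both trunk arrays, had ratios of -0.10 and -0.24.

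**Figure D3:**
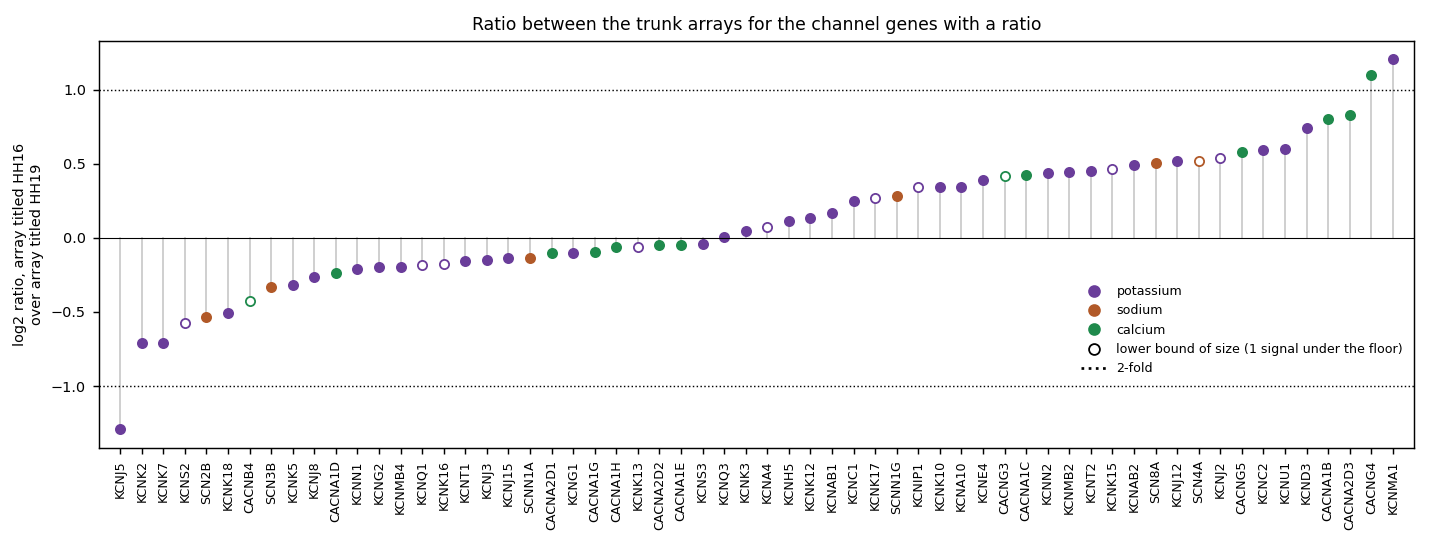
Log2 ratio of the HH16-titled over the HH19-titled array (vertical axis) for the 60 channel genes with a ratio, in ascending order and coloured by ion; open circles are lower bounds of the difference, where 1 signal was under the floor, and dotted lines mark 2-fold. KCNMA1 at 1.21 and CACNG4 at 1.10 lie above the upper line, KCNJ5 at -1.29 lies below the lower line, and the other 57 lie between.

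Markers of other cells moved between the same arrays. Among 21 neuronal markers, 9 were past 2-fold higher on the HH16-titled array and 0 were lower, with sums of 57325 on the HH16-titled array and 27094 on the HH19-titled array. Of all named genes with a ratio, 1.93% were higher and 1.54% lower. Of 8 melanoblast markers, 7 had a ratio, of which 3 were higher and 0 lower, with sums of 3929 and 1136. Of 11 neural tube progenitor markers, 0 were higher and 6 lower, with sums of 13769 and 19384. Of 9 sclerotome and cartilage markers, 0 were higher and 4 lower, with sums of 7379 and 10711. These sums include COL2A1 at 6513 and 8760, and the neural tube progenitor sums FABP7 at 8292 and 8267. No marker in these lists was at 0, and the part of these cells in the channel signals was not tested.

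In the comparison of the trunk arrays with the HH9 array, the called channel genes were all higher in the trunk. For the HH16-titled array over the HH9 array, 62 channel genes had a ratio, of which 19 were lower bounds. CACNA2D1, CACNG4, KCNMA1, CACNA1D and KCNN2 were at least 2-fold higher, 5 of 62 (8.06%), where 6.8% of all named genes were. By the probe sets used, none was at least 2-fold lower, where 3.2% of all named genes were. Of the 22 channel genes bright enough to be called, 22.7% were higher, against 8.29% of such named genes. All 5 were bright enough by the trunk signal only, so these shares do not measure a difference between the sets. The median log2 ratio was 0.14 over the channel genes and -0.01 over all named genes, with 40 channel genes above 0 and 22 below.

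For the HH19-titled array over the HH9 array, 62 channel genes again had a ratio, of which 21 were lower bounds. CACNA2D1, CACNA1D, KCNJ5, SCN3B and CACNG4 were at least 2-fold higher, 5 of 62 (8.06%), where 5.34% of all named genes were. None was at least 2-fold lower, where 2.58% of all named genes were. Of the 20 channel genes bright enough to be called, 25% were higher, against 6.54% of such named genes. Both shares rest on 5 genes, and bright enough means 2 times the floor on the brighter of both arrays. CACNA2D1, CACNA1D and CACNG4 were bright enough by the trunk signal only, so the share of 25% does not measure a difference between the sets either. The median log2 ratio was 0.11 over the channel genes and 0.00044 over all named genes. Both comparisons share the HH9 array, and that array differs from the trunk arrays in stage, body region and dissection, which cannot be told apart.

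Calcium channel subunits made up 3 of the 5 genes in each comparison, out of 12 calcium channel genes with a ratio. Of potassium channel genes, 2 of 43 were higher on the HH16-titled and 1 of 43 on the HH19-titled array. For sodium channel genes these were 0 of 7 and 1 of 7, and of all named genes 6.8% and 5.34% were higher. The 3 calcium channel genes were bright enough to be called by the trunk signal only, so these counts do not measure a difference between classes. CACNA2D1 was 5.42-fold higher on the HH16-titled array (log2 ratio 2.44) and 5.82-fold higher on the HH19-titled array (2.54) than on the HH9 array. Its other probe sets gave 579.8, 424.6 and 102.4 on the HH16-titled array and 385.1, 453.1 and 78.8 on the HH19-titled array, against 224.4, 132.0 and 26.4 on the HH9 array. The HH9 array was thus lowest on the 3 probe sets that were above the floor throughout. CACNA1D, with 1 probe set, was at least 3.46-fold higher on the HH16-titled array (1.79) and at least 4.08-fold higher on the HH19-titled array (2.03). CACNG4 was 4.55-fold higher on the HH16-titled array (2.19) and 2.12-fold higher on the HH19-titled array (1.09). When each array was centred on its median, or with quantile normalization, the last value dropped to 0.98 and 0.99.

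KCNMA1 was at least 3.66-fold higher on the HH16-titled array (log2 ratio 1.87) than on the HH9 array, and at least 1.59-fold higher on the HH19-titled array (0.67). The other probe sets of KCNMA1 were under the floor on both the HH19-titled and the HH9 array. KCNN2 was at least 2.41-fold higher on the HH16-titled array (1.27) and at least 1.78-fold higher on the HH19-titled array (0.83). Under a floor at the 60th percentile, the HH9 signals of KCNMA1, CACNG4, KCNN2 and CACNA1D lay under it, which left lower bounds only. On the HH16-titled array these bounds were 0.64 for KCNMA1, 0.99 for CACNG4, 0.03 for KCNN2 and 0.56 for CACNA1D. On the HH19-titled array the bound was 0.79 for CACNA1D. KCNJ5 was 2.56-fold higher on the HH19-titled array (1.36), while the HH16-titled array was close to the HH9 array (0.07).

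SCN3B was 2.16-fold higher on the HH19-titled array than on the HH9 array (log2 ratio 1.11) and 1.72-fold higher on the HH16-titled array (0.78). Its call rested on the probe set used. The other probe sets gave 314.6 and 189.5 on the HH19-titled array, against 258.1 and 186.0 on the HH9 array, and the median ratio over all 3 probe sets was 0.29. With quantile normalization the ratio of the probe set used was just under 2-fold.

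Next to the threshold on the HH16-titled array lay KCNK12 at a log2 ratio of 0.99, CACNA1B at no less than 0.98 and, in the other direction, KCNK2 at -0.97. KCNK2 passed 2-fold lower, at -1.13, after centring or quantile normalization. On the HH19-titled array KCNK12 stood at 0.85. KCNK5 had ratios of 0.25 on the HH16-titled and 0.57 on the HH19-titled array by a probe set that may bind several transcripts. Its other probe set gave 214.8 on the HH16-titled and 239.4 on the HH19-titled array, against 96.1 on the HH9 array, that is at least 1.11 and 1.26. In the other direction, a further probe set of KCNK7 had 108.1 on the HH16-titled array against 268.6 on the HH9 array (-1.31). The probe set used for KCNK7 gave -0.50.

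The scaling of the arrays bears on this comparison more than on that within the trunk. Centring each array on its median moved the median log2 ratio of all named genes to -0.16 for the HH16-titled array and to -0.10 for the HH19-titled array over the HH9 array. The share of all calls that were higher changed with it, being 68.0% as scaled by the authors and 53.9% after centring for the HH16-titled array, and 67.4% and 56.0% for the HH19-titled array. The median of the channel genes over the HH9 array was then -0.0054 for the HH16-titled array and 0.01 for the HH19-titled array. Ratios with 1 signal set to the floor follow the scaling only in part. Before centring these were 19 and 21 of 62 channel ratios, so the centred medians were not compared with those of all genes.

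Neuronal markers differed in this comparison too. On the HH16-titled array 16 of 21 exceeded the HH9 array by 2-fold or more, and on the HH19-titled array 7 of the 20 with a ratio, with 0 lower. Of all named genes, 6.8% and 5.34% were higher and 3.2% and 2.58% lower. The neuronal sums were 57325 and 27094, against 17000 on the HH9 array. Of neural tube progenitor markers with a ratio, 2 of 9 were higher on the HH16-titled array and 7 of 11 on the HH19-titled array. The part of these cells in the channel ratios was not tested.

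**Figure D4:**
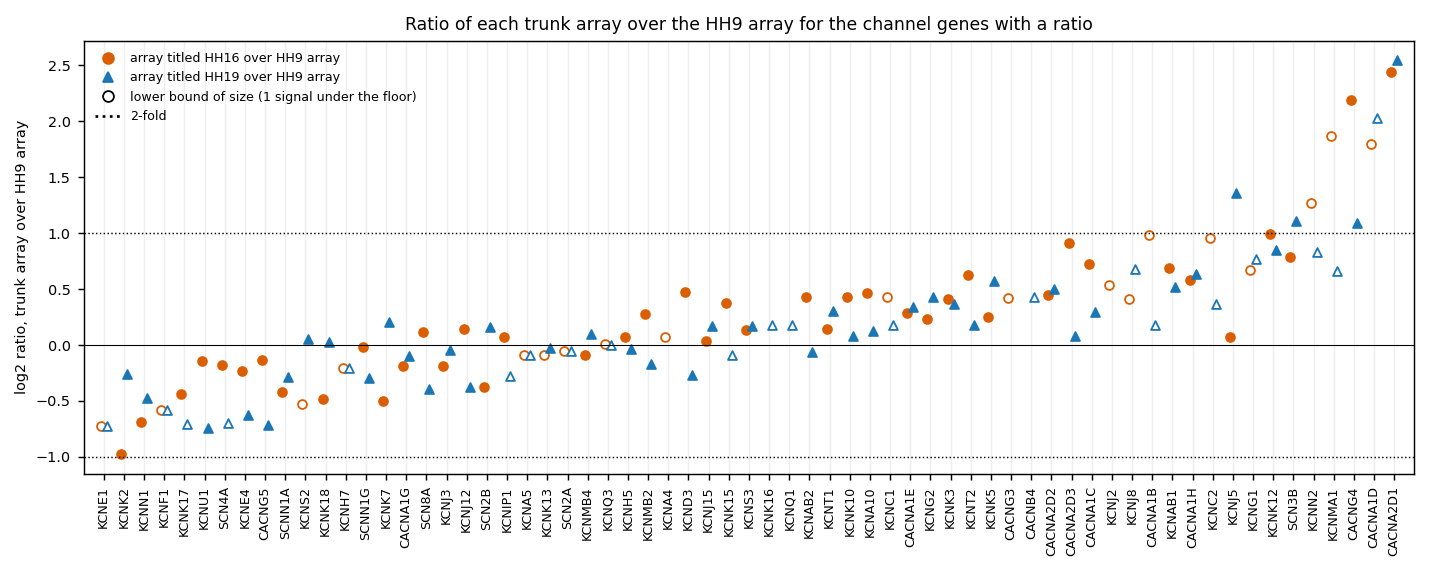
Log2 ratio of each trunk array over the HH9 array (vertical axis) for the channel genes with a ratio, with circles for the HH16-titled and triangles for the HH19-titled array; open symbols are lower bounds of the difference and dotted lines mark 2-fold. CACNA2D1, CACNA1D and CACNG4 lie above the upper line on both trunk arrays, KCNMA1 and KCNN2 on the HH16-titled array only and KCNJ5 and SCN3B on the HH19-titled array only, and no gene lies below the lower line.

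Several probe sets of 1 gene gave an internal check of the measurement, since 55 of the 101 channel genes had more than 1. For the trunk comparison, 33 further probe sets of 21 genes had a ratio. Their log2 ratios differed from that of the probe set used by a median of 0.38, and 24 of them (72.7%) had the same sign. Over the HH9 array the median difference was 0.53 for 31 probe sets on the HH16-titled array and 0.36 for 28 on the HH19-titled array, with 23 and 22 of the same sign. Over all named genes the median differences were 0.25, 0.29 and 0.27, and 63.5%, 70.1% and 67.8% of the further probe sets had the same sign. Between the trunk arrays, the ratio of the probe set used was no larger than the median difference of its set for 33 of 60 channel genes. It was so for 5909 of 10681 named genes. Over the HH9 array these were 42 of 62 channel genes on the HH16-titled array, against 5081 of 10697 named genes. On the HH19-titled array they were 34 of 62, against 5308 of 10643.

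**Figure D5:**
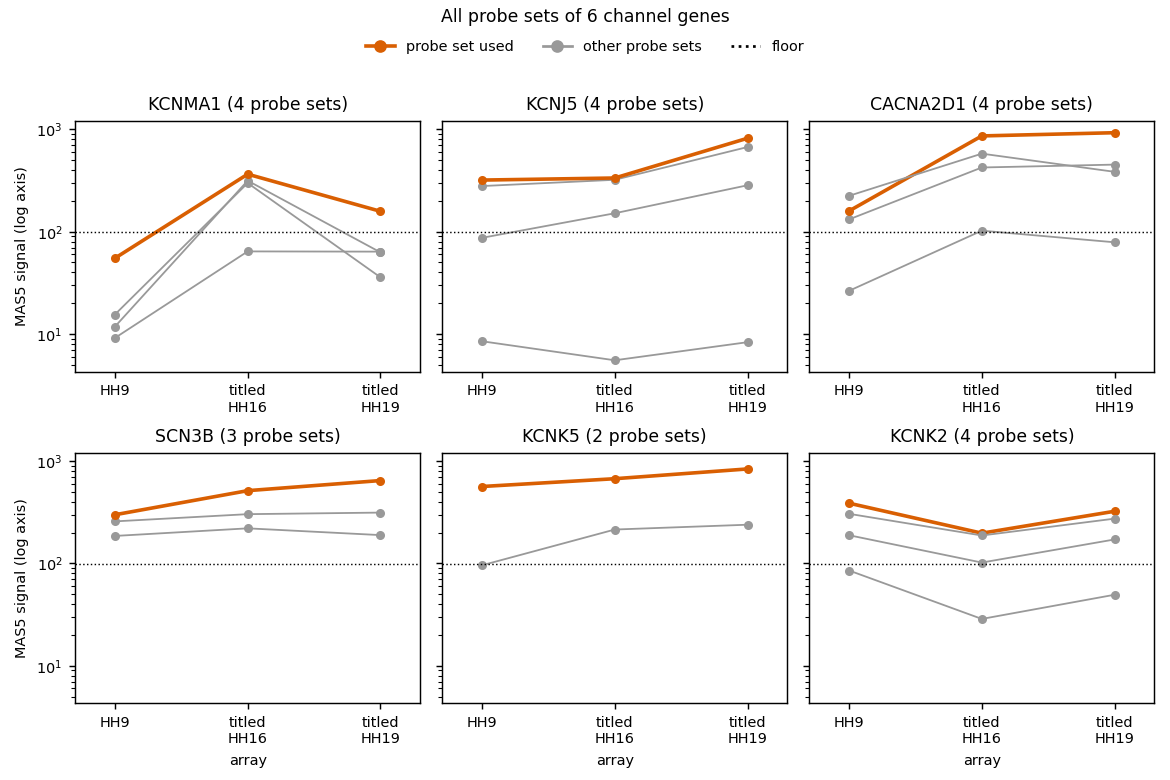
MAS5 signal (log axis) of every probe set of 6 channel genes on the HH9, HH16-titled and HH19-titled arrays (horizontal axis); the probe set used is drawn in orange, the others in grey, and the floor of 99.8 as a dotted line. The probe sets of KCNMA1, KCNJ5 and KCNK2 that rise above the floor have the same array highest, those of CACNA2D1 and SCN3B differ in which trunk array is higher, and those of KCNK5 differ in the size of the change.

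Several channel genes lie side by side in the genome, and the signals of some neighbours differed. Other pairs did not: KCNA2 and KCNA3, and SCN9A and SCN1A, were under the floor on all arrays. Signals of different probe sets give no order of RNA amounts between genes. In the RefSeq gene order of assembly GRCg7b, CACNG4 follows directly on CACNG1, which was at 16.5 on the HH9 array, 14.8 on the HH16-titled array and 17.1 on the HH19-titled array, far under the floor. CACNG5, with 1 gene between it and CACNG4, had 168.3, 153.8 and 102.8. KCNJ5 is next to KCNJ1, which was under the floor on all 3 arrays at 44.6, 56.3 and 50.6. SCN2B, well above the floor throughout by the probe set used, is next to SCN4B, which was under it throughout. KCNK5 is next to KCNK17, which had 162.6, 120.3 and 84.7, and KCNK17 to KCNK16, seen only on the HH19-titled array.

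Proteins that anchor or modulate channels were measured beside the channels themselves. Among 25 measured anchors and modulators, 18 had a ratio between the trunk arrays, of which 3 were higher by 2-fold or more on the HH16-titled array and 0 were lower, where 1.93% and 1.54% of all named genes were. DPP10, a membrane partner of the A-type pores such as KCND3, had 1507 on the HH16-titled array, against 366.6 on the HH19-titled array (4.11-fold higher), and 187.5 on the HH9 array. FGF12 and FGF13, internal proteins that bind sodium channel pores, were at least 2.29-fold and 2.29-fold higher. FGF13 had 394.9 on the HH16-titled array, against 172.7 on the HH19-titled array, and 201.4 on the HH9 array. DPP10 thus followed the same order of arrays as the probe sets used for KCNMA1 and CACNG4, whereas FGF13 did not.

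Over the HH9 array, 19 of the anchors and modulators had a ratio, of which 5 were higher on the HH16-titled array (6.8% of all named genes) and 3 on the HH19-titled array (5.34%), and 1 was lower in each (3.2% and 2.58%). NRCAM, an adhesion molecule of the axon initial segment and nodes, had 520.7 on the HH16-titled and 287.5 on the HH19-titled array, against 7.0 on the HH9 array. ANK3, the ankyrin that holds sodium channels at the initial segment, had 1649 and 1167, against 436.4. The gene that was lower was CNTNAP1, a protein of the junctions beside nodes, with 381.0 and 512.5, against 1290 (3.38-fold and 2.52-fold lower).

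Other ion transport genes were compared between the trunk arrays against the same 1.93% and 1.54%. Of 40 measured cation and chloride channels of other families, 24 had a ratio, of which 2 were higher on the HH16-titled than on the HH19-titled array and 0 lower. TRPV6, a calcium-selective channel, had 1048 on the HH16-titled array, against 314.2 on the HH19-titled array (3.34-fold higher), and 143.3 on the HH9 array. TRPM1, a channel of pigment cells, had 310.9 on the HH16-titled array and was under the floor on both others, at 64.6 on the HH19-titled array and 23.0 on the HH9 array. Of 14 pumps and exchangers, 12 had a ratio, and SLC12A2, which brings chloride into immature neurons, was the 1 that was higher, with 1662 against 783.5 (2.12-fold). Of 5 intracellular calcium release channels, 4 had a ratio, and ITPR3 was higher at 603.0 against 283.5 (2.13-fold), with 751.0 on the HH9 array. ATP1B1, a sodium pump subunit, had 1957 on the HH16-titled and 1664 on the HH19-titled array, against 527.5 on the HH9 array.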

How the data were processed

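RNA of HNK1-selected chick NCC was measured on Affymetrix chicken genome arrays, 1 per stage. The deposited files hold linear intensity values (signals), which the authors had made with MAS5 by an outside company (version and settings not given in the sources used here). Whether a column is 1 of the 3 biological replicates the paper describes, or their mean, was also not given. The number of arrays limits the precision.

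After removal of 96 controls from 38535 probe sets, 38439 stayed, of which 27168 had 1 gene symbol, 177 several and 11094 none. Names come from the platform annotation, and the RefSeq table (GRCg7b), used for names and gene order only, held 99 of the 101 symbols and changed 0. Annotation titles were not used here, so SCNN and CACNG genes were kept. The brightest probe set by mean log2 signal stood for a gene. Signals under the floor (99.8, 40th percentile) were set to it, ratios with both signals under it were left out, and 2-fold was the call. The computation, in Python (3.11.15) using pandas (2.3.3), numpy (2.4.6), matplotlib (3.10.9) and scipy (1.17.1), was tested on simulated data. No test was possible with 1 array per stage.

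Channel genes and lists were chosen with earlier results of these data known. Values are given for genes called between the trunk arrays, the 10 with the highest mean log2 signal, the largest ratios over the HH9 array among genes reaching a signal of 200, those next to the threshold and those at or above the floor on 1 array; other genes named were chosen after their values were seen. Alternatives were other scalings, floors, fold thresholds, probe set choices and members.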

Additional observations from a re-analysis of the deposited data

How the results depend on the processing

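The floor moved the counts of called channel genes most. Under a floor at the 20th percentile, 6 channel genes were higher and 5 lower between the trunk arrays (HH16-titled over HH19-titled). These were 6.9% and 5.7% of those with a ratio, against 4.3% and 3.5% of all named genes. For the HH16-titled over the HH9 array they were 10 and 4 (11.8% and 4.7%, against 9.3% and 4.9%). For the HH19-titled over the HH9 array they were 12 and 4 (13.6% and 4.5%, against 7.8% and 4.6%). With no floor these counts were 11 and 11, 12 and 10, and 15 and 8. The shares were 10.89% and 10.89%, 11.88% and 9.9%, and 14.85% and 7.9%. Those of all named genes were 6.4% and 5.0%, 10.88% and 6.7%, and 9.37% and 6.7%. Under a floor at the 60th percentile, 0 of 16 were higher between the trunk arrays (median log2 ratio -0.14), against 1.4% of all named genes. KCNJ5 kept its call as 1 of 16 lower (6.25%, against 0.93%), a share that rests on 1 gene. Over the HH9 array, 1 of 18 was higher on the HH16-titled array (5.6%, against 5.6%). On the HH19-titled array 3 of 15 were (20%, against 3.9%), a share that rests on 3 genes. Of the named genes, 7 ratios fell below 2-fold under this floor, each a lower bound with the fainter signal under it. At 3-fold, 0 were higher and 0 lower between the trunk arrays, so that KCNMA1, CACNG4 and KCNJ5 all lost their call. Of all named genes, 0.46% were higher and 0.45% lower there. At this threshold 4 of 62 channel genes were higher on the HH16-titled over the HH9 array (6.5%, against 2.7%). On the HH19-titled over the HH9 array 2 were higher (3.2%, against 1.9%). After centring, 1 gene was lower on the HH16-titled over the HH9 array (1.6%, against 4.7%), with a median of -0.0054. With quantile normalization, 1 was lower there (1.6%, against 3.9%) with a median of 0.0074. On the HH19-titled over the HH9 array 3 were then higher (4.9%, against 4.6%). With voltage-gated families only, counted as above with KCNN1 and KCNN2 among them, KCNMA1 and CACNG4 stayed higher between the trunk arrays. They were 2 of 41 genes (4.9%, against 1.9%). No gene could be lower there, because KCNJ5, the only lower one, was left out with the other KCNJ genes. Over the HH9 array, 5 of 44 were higher on the HH16-titled array (11.4%, against 6.8%) and 4 of 44 on the HH19-titled array (9.1%, against 5.3%). The median of these families between the trunk arrays was 0.17. The median of the HH16-titled over the HH9 array was then 0.26. The cause of these shifts was not tested. Fewer genes had a ratio under the higher floor and in the smaller set. Leaving out probe sets marked A, an alternative chosen after seeing the data, changed no call among the named genes it left. Of the ratios of named genes that could be formed under the other scalings, floors and probe set choices, 634 kept direction and side of the threshold, 28 passed it, 11 no longer did and 6 changed sign near 0, while no called ratio turned round. Replicates could not be left out with 1 array per stage. No paired analysis was possible because the arrays share no replicate number from separate embryos.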

Other observations

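A probe set shared by SCN1A, SCN2A and SCN3A, and therefore given to no gene, measured 45.9 on the HH9 array, 109.6 on the HH16-titled array and 21.0 on the HH19-titled array. A probe set without a symbol in the platform annotation, described in the supplement of the paper as similar to a delayed rectifier potassium channel, had 41.4, 140.8 and 75.9 in the same order. Both were at or above the floor on the HH16-titled array only. The genes left out for coding no channel subunit were well above the floor: KCNRG, the regulator of channel assembly, had 426.1, 480.5 and 493.3, and SCNM1, the splicing factor, had 547.4, 514.4 and 744.6.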
